A study of Mus musculus with 12 samples.

Results

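The genes described here are 10 immediate-early transcription factor genes of the mouse, the EGR zinc finger genes Egr1, Egr2 and Egr3, the AP-1 genes Fos, Fosb, Fosl1, Jun and Junb, and the related genes Atf3 and Ier2. They were chosen by name and family, with earlier results of the same samples known and with no threshold on any value, and each (on chromosome 18, 10 and 14 for the EGR genes, 12, 7 and 19 for the FOS genes, 4 and 8 for Jun and Junb, 1 for Atf3 and 8 for Ier2) was matched by its gene symbol to 1 Ensembl identifier among the 37991 in the files. Because that choice was made with the levels in all 4 groups in view, the fold changes and adjusted p-values of the 10 genes are a description and not independent evidence. RNA-seq had been performed on primary mouse embryonic fibroblasts (MEFs) of the FVB strain, isolated from 13.5-day-old embryos and used at passage 3, and read counts per gene were analysed in 12 samples, 3 for each of 4 groups. The groups were wild-type MEFs without treatment, wild-type MEFs given neocarzinostatin (NCS, 250 ng/ml for 3 h), E2f1 3KR/3KR knock-in MEFs (3KR) without treatment, and 3KR MEFs given the same dose of NCS for the same time. The 3KR allele replaces lysines of E2F1 that are acetylated with arginine in every cell of the animal, and NCS is a radiomimetic drug that breaks DNA. All cultures were kept in 10% FBS and 5% O2. The labels number 3 samples a group without stating that these came from separate embryos, so the p-values measure the spread between these samples, which may be technical.

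Immediate-early genes are transcribed within minutes of a growth factor, serum or stress signal, from factors already present in the cell and with no need for new protein. In fibroblasts the RAS-ERK branch of the MAP kinase cascade phosphorylates ternary complex factors that sit with serum response factor (SRF) on CArG boxes, while the stress kinases JNK and p38 act on JUN and ATF proteins. FOS and JUN proteins pair through leucine zippers into AP-1, EGR proteins bind GC-rich sites through zinc fingers, and the DUSP phosphatases, themselves induced by the pathway, shut the kinases off again.

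The promoter letters were searched because the members share a class of induction but not a direction of change. Promoter sequence from RefSeq (GRCm38.p6) was at hand for 6 of the 10 genes, namely Egr2, Fos, Fosb, Jun, Junb and Atf3, and the 250 bases before each start were searched on both strands for a CArG box, a CRE (TGACGTCA), an AP-1 site (TGAGTCA), an EGR site (GCGNGGGCG) and an E2F site (TTTNGCGC). Egr1, Egr3, Fosl1 and Ier2 were not in this table. Egr2 held a CArG box at 4 of its 5 annotated starts, in the 2 forms shown, and Fosb held 1 EGR site. Capitals mark the match in each 5′ to 3′ run.
Egr2, CArG box, bases 82 to 53 before the start at 67537869, chr10:67537787-67537816, plus strand: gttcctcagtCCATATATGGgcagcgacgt
Egr2, CArG box, bases 82 to 53 before the start at 67537566, chr10:67537484-67537513, plus strand: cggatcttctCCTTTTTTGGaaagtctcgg
Fosb, EGR site, bases 60 to 32 before the start at 19310045, chr7:19310077-19310105, minus strand: tgacgcaagcGCGGGGGCGggtcccggag
Over all 32851 starts of the table, 1.47% held a CArG box, 1.55% a CRE, 4.46% an AP-1 site, 4.7% an EGR site and 1.13% an E2F site in a window of the same length. Both sites of Egr2 lie inside the annotated gene (67535475 to 67542188), downstream of its first start at 67535499, and the site of Fosb lies upstream of the gene (19302696 to 19310051). These letters were not found in the windows of Fos, Jun, Junb and Atf3. A match is a run of letters and not a measured binding site.

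Each sample held between 33203757 and 45279321 reads counted on genes. NCS acted in both genotypes, since Cdkn1a, the p53-induced CDK inhibitor, had normalized read counts of 17070 to 18010 without and 38960 to 39930 with NCS in wild-type MEFs, and 9734 to 9882 against 24530 to 25140 in 3KR MEFs. E2f1 itself lay between 1042 and 1296 without NCS and between 1167 and 1277 after it over both genotypes, which does not check the 3KR substitution because the allele is still transcribed. Xist was at 30590 to 35630 in the 3KR samples and 32.27 to 62.53 in wild-type, with the Y-linked gene Ddx3y at 7.001 to 16.2 and 5370 to 5822, so genotype and sex cannot be told apart in any comparison between genotypes. Replicate 3 of the wild-type MEFs stood apart from replicates 1 and 2 in both treatments (chi-square per gene 7.57 to 9.37, against 2.03 to 2.34 for all other pairs of a group), and values without it are given where they change a call. Fibroblast markers (10 of 10 above 3 counts) summed to 57900 to 60100 CPM in wild-type and 60200 to 64200 in 3KR MEFs, and 8 of the 10 were called higher and 2 lower in untreated 3KR MEFs, where 22.1% of all tested genes were called higher and 23.6% lower. Macrophage markers summed to 99.2 to 120 CPM in wild-type and 180 to 206 in 3KR MEFs, Schwann cell and neural crest markers to 225 to 240 and 46.1 to 55.2, and skeletal muscle markers to 117 to 124 and 40.1 to 43.7. Of the 10 macrophage markers, 9 were called higher and 0 lower in untreated 3KR MEFs, and 8 higher and 0 lower after NCS. Of the 10 Schwann cell and neural crest markers, 7 were called lower and 0 higher in untreated 3KR MEFs. After NCS 7 were lower and Mbp higher, where 23.6% of all tested genes were called lower and 22.9% higher. Of the 6 skeletal muscle markers only 2, Des and Actn2, were tested, and both were called lower. Epithelial and endothelial markers summed to 2.34 to 2.72 and 5.31 to 6.59 CPM in wild-type and 2.39 to 3.32 and 4.82 to 5.48 in 3KR MEFs. Of the 3 epithelial markers tested, 2 were called higher and 1 lower in untreated 3KR MEFs, and of the 4 endothelial markers 1 was called lower. Krt5, Tie1 and Myf5 had at most 3 counts in every sample. The part of these other cell types in the genotype differences was not tested, and in bulk samples fewer cells of a type and less RNA per cell cannot be told apart.

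All 10 genes passed the filter on low counts and the lowest normalized count of any of them in any sample was 144.7, for Atf3. On the scale of TMM-normalized CPM per kb of exon, the level in untreated wild-type MEFs was highest for Junb (47.5 ± 4.55, SD, n = 3) and Egr1 (46.3 ± 1.84), followed by Ier2 (36.1 ± 3.74) and Jun (34 ± 1.36). Egr2 (14.9 ± 1.6) and Fos (10.3 ± 0.64) formed the middle of the order. Fosl1 (2.96 ± 0.403), Egr3 (2.79 ± 0.528) and Atf3 (2.7 ± 0.0978) came next, with Fosb (0.84 ± 0.111) at the bottom. The samples of Junb and Egr1, of Ier2 and Jun, of Fosl1 and Egr3 and of Egr3 and Atf3 overlapped, whereas the remaining neighbours in this order did not. Egr1 went with NCS from rank 2 to rank 4 of the 10 in both genotypes, and its treated level per kb was 21.5 ± 1.31 in wild-type and 30 ± 0.91 in 3KR MEFs. Junb held rank 1 in every group, at 56.3 ± 2.27 in NCS-treated wild-type, 41.5 ± 0.966 in untreated 3KR and 59.8 ± 1.6 in NCS-treated 3KR MEFs. Fosb was last in every group.

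**Figure D1:**
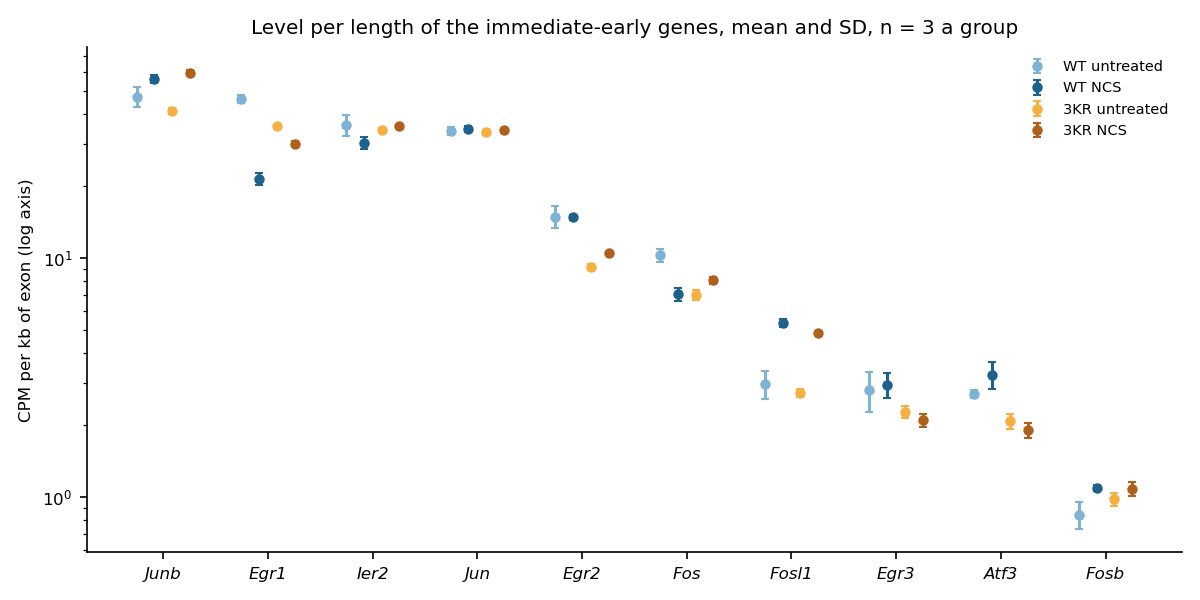
Mean level of each immediate-early gene in TMM-normalized CPM per kb of exon (log axis), with SD bars over the 3 samples of each group and genes ordered by their level in untreated wild-type MEFs. Junb, Egr1, Ier2 and Jun lie above 20 in every group and Fosb near 1, and Egr1 shows the widest separation of the 4 groups among the abundant genes.

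Wild-type MEFs given NCS were compared with untreated ones at 3 h only. Changes at earlier or later times were not measured, so a brief earlier rise would not be seen. Of the 10 genes, 3 rose (Fosl1, Fosb and Junb) and 3 fell (Egr1, Fos and Ier2) at an adjusted p under 0.05, where 14.3% of all 15327 tested genes were called higher and 12.4% lower, and the other 4 (Egr2, Egr3, Jun and Atf3) did not pass the test. The median log2 fold change of the 10 genes was 0.055, beside 0.0054 over all genes. The same treatment of 3KR MEFs raised 4 genes (Fosl1, Junb, Fos and Egr2) and lowered Egr1 alone, against 15.8% of all genes called higher and 15.0% lower, and the median was 0.097, beside −0.00079 over all genes. Within the FOS family of wild-type MEFs, Fos thus fell while Fosl1 and Fosb rose, and Fos itself was called in opposite directions in the 2 genotypes.

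**Figure D2:**
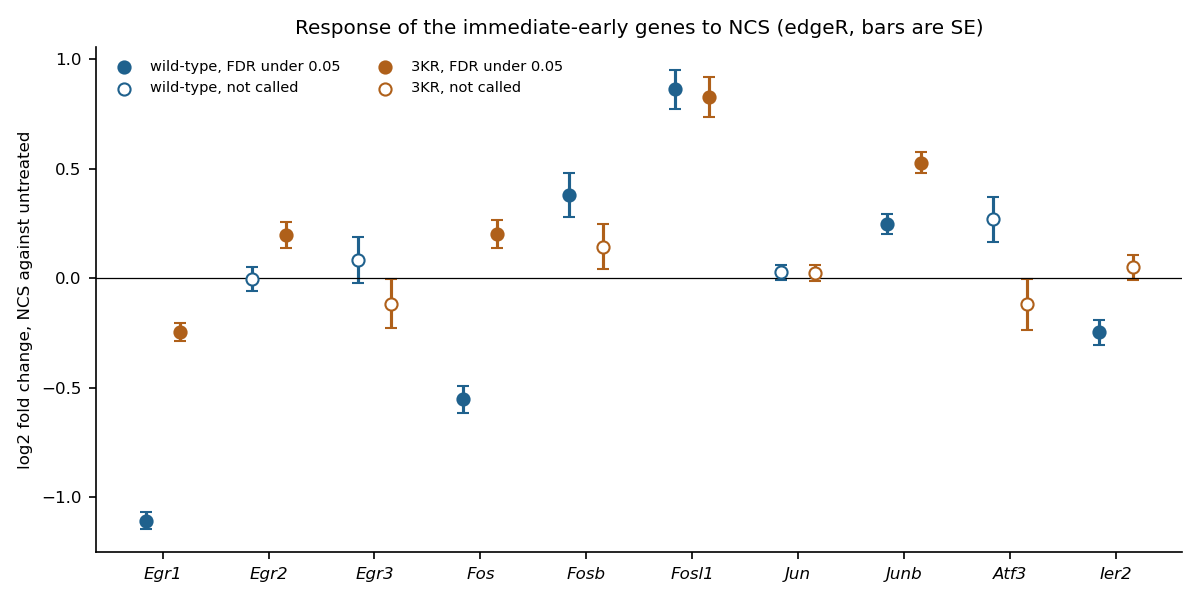
Log2 fold change of each gene in NCS-treated against untreated MEFs from edgeR, with SE bars, in wild-type and in 3KR MEFs (filled points, adjusted p under 0.05). Egr1 and Fos sit far below 0 in wild-type MEFs (−1.11 and −0.55) and at −0.25 and 0.20 in 3KR MEFs, while the points of Fosl1 and of Jun lie side by side.

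Egr1, the best studied factor of its family and a gene induced through ERK and SRF, had the largest response of the 10 in wild-type MEFs. Its normalized read counts were 7666, 7801 and 8258 in untreated wild-type MEFs and 3860, 3734 and 3448 after NCS. In 3KR MEFs they were 6126, 6139 and 6054 without and 4965, 5220 and 5254 with NCS. The 4 groups did not overlap, with untreated wild-type highest, then untreated 3KR, NCS-treated 3KR and NCS-treated wild-type. Treated and untreated samples also did not overlap for 35.1% of all tested genes in wild-type and 47.6% in 3KR MEFs. Between the genotypes that share was 53.5% without treatment and 54.3% after NCS. The separations given below for the other genes stand beside these shares. NCS brought Egr1 to 0.465 times its untreated mean in wild-type MEFs (log2 fold change −1.11, SE 0.0403, adjusted p = 2.08e-15) and to 0.843 times in 3KR MEFs (−0.25, SE 0.0399, adjusted p = 4.49e-05). The difference between these responses, 0.86 on the log2 scale (SE 0.0566, adjusted p = 4.38e-09), had the lowest p of all 15327 tested genes.

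Egr2, known for its role in myelinating Schwann cells and also a serum-induced gene of fibroblasts, differed mainly between the genotypes. It stood at 1839, 1775 and 2159 normalized counts in untreated and 1962, 1924 and 1885 in NCS-treated wild-type MEFs. The corresponding values in 3KR MEFs were 1166, 1186 and 1230, and 1371, 1384 and 1346. All 6 samples of the 3KR MEFs were thus below all 6 of the wild-type MEFs. Of all tested genes, 53.5% did not overlap between the genotypes without treatment and 54.3% after NCS. The log2 difference was −0.69 (SE 0.0567, adjusted p = 4.38e-10) without treatment and −0.49 (SE 0.0565, adjusted p = 1.34e-07) after NCS. In the 3KR samples the sum of the Schwann cell and neural crest markers was also lower, with the calls given above. Their part in the difference of Egr2 was not tested. NCS raised Egr2 in 3KR MEFs (0.20, SE 0.0586, adjusted p = 0.0131), a call that was lost without untreated replicate 1 of 3KR (adjusted p = 0.0565). In wild-type MEFs the change was −0.0033 (SE 0.0545, adjusted p = 0.976), and the difference of 0.20 between the responses did not pass the test (adjusted p = 0.201).

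Egr3, the third EGR gene, varied most between replicates, with a within-group SD of 0.175 on the log2 scale. It was at 467.3, 380.4 and 556.8 normalized counts in untreated and 501.2, 552.2 and 436.8 in NCS-treated wild-type MEFs, against 357.8, 391 and 400.1, and 373.7, 327.9 and 355.7, in 3KR MEFs. The untreated genotypes overlapped, whereas after NCS the 3 samples of 3KR were below the 3 of wild-type. Egr3 was lower in 3KR MEFs after NCS (−0.49, SE 0.109, adjusted p = 0.000641). Without treatment it was called lower as well (−0.29, SE 0.107, adjusted p = 0.0281), but that call was lost on leaving out replicate 1 or 3 of untreated wild-type or replicate 1 or 2 of untreated 3KR (adjusted p = 0.053 to 0.21). NCS changed it by 0.084 in wild-type and −0.12 in 3KR MEFs, neither past the threshold (adjusted p = 0.612 and 0.474). Without replicate 3 of the wild-type MEFs it was called higher after NCS (0.30, adjusted p = 0.00696) and its response was called smaller in 3KR MEFs (−0.42, adjusted p = 0.014).

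Among the FOS genes, Fos itself encodes the founding partner of JUN in AP-1. Its normalized counts were 911.3, 879.6 and 989.4 in untreated wild-type MEFs and 675.5, 612.2 and 613 after NCS. In 3KR MEFs they were 638.9, 655.2 and 596.5 without and 733.2, 739.7 and 698.9 with NCS. The untreated wild-type samples were above all 9 others, and the NCS-treated wild-type samples overlapped the untreated 3KR samples. Fos fell with NCS in wild-type MEFs (−0.55, SE 0.0618, adjusted p = 3.36e-07) and rose in 3KR MEFs (0.20, SE 0.0641, adjusted p = 0.0185), and the responses differed by 0.76 (SE 0.089, adjusted p = 1.29e-05). The rise in 3KR MEFs was no longer called without untreated replicate 3, NCS replicate 1 or NCS replicate 2 of 3KR (adjusted p = 0.0635 to 0.104) or with library totals as the only scaling (adjusted p = 0.0583). The difference between the responses kept its call in each of these.

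Fosl1, which encodes the FOS family member FRA1 and lacks the activation domain of FOS, rose in both genotypes. It went from 203.8, 220.1 and 263.9 to 424.4, 424.1 and 400 normalized counts in wild-type MEFs and from 213.6, 202.8 and 219.1 to 373.7, 375.7 and 378.4 in 3KR MEFs. No untreated sample reached any treated sample. The log2 fold change was 0.86 (SE 0.0889, adjusted p = 9.55e-08) in wild-type and 0.83 (SE 0.0919, adjusted p = 2.33e-07) in 3KR MEFs. The difference between them was −0.035 with a 95% interval of −0.333 to 0.262, and differences within that interval cannot be resolved from these samples. The genotypes did not differ at the threshold without treatment (−0.11, adjusted p = 0.373) or after NCS (−0.15, adjusted p = 0.165).

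Fosb, the lowest of the 10 per length, was at 196.3, 175.5 and 227.7 normalized counts in untreated and 260.4, 253.5 and 268.7 in NCS-treated wild-type MEFs. The values of 3KR were 235.8, 246.5 and 217.3, and 242, 253.2 and 276.1. The treated wild-type samples were above the untreated wild-type samples, and the ranges of the 2 groups of 3KR overlapped. Fosb rose with NCS in wild-type MEFs (0.38, SE 0.102, adjusted p = 0.00694), a call lost without replicate 2 of untreated wild-type (adjusted p = 0.0518). In 3KR MEFs the change was 0.14 (SE 0.102, adjusted p = 0.309), and the responses did not differ at the threshold (−0.24, adjusted p = 0.445). Untreated 3KR MEFs differed from wild-type by 0.22 (adjusted p = 0.0943), and this was called higher without replicate 3 of untreated wild-type (0.31, adjusted p = 0.0215).

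Jun, the main zipper partner of the FOS proteins, was the steadiest member. Its 12 normalized counts lay between 4009 and 4342, with group means of 4124 ± 162, 4210 ± 118, 4107 ± 95.9 and 4174 ± 47.9 (SD, n = 3) in untreated and NCS-treated wild-type and untreated and NCS-treated 3KR MEFs. Every pair of groups overlapped. Junos, annotated antisense to Jun, had at most 58 counts in any sample. The response to NCS was 0.027 in wild-type MEFs, with a 95% interval of −0.0549 to 0.108, and 0.025 in 3KR MEFs, with an interval of −0.0566 to 0.107. Both take the opposite sign, at −0.021, with library totals as the only scaling.

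Junb, which also pairs with FOS but is a weaker activator than JUN, rose with NCS in both genotypes. Wild-type MEFs held 3901, 3964 and 4616 normalized counts of it without and 4913, 5152 and 4782 with NCS. The 3KR samples held 3693, 3702 and 3551, and 5170, 5172 and 5413. Untreated 3KR lay lowest and NCS-treated 3KR highest of the 4 groups, with no overlap between any of them. The rise was 0.25 (SE 0.0479, adjusted p = 0.000382) in wild-type and 0.53 (SE 0.0484, adjusted p = 1.07e-08) in 3KR MEFs, and the responses differed by 0.28 (SE 0.068, adjusted p = 0.0198). That difference was no longer called without NCS replicate 1 of wild-type, untreated replicate 3 of 3KR or NCS replicate 3 of 3KR (adjusted p = 0.0518 to 0.0735). In the annotation Junb overlaps Prdx2 on the opposite strand, and whether the counting used the strand is not stated. Prdx2 changed with NCS by 0.088 and 0.076 in wild-type and 3KR MEFs (adjusted p = 0.165 and 0.23) and was lower in untreated 3KR MEFs (−0.26, adjusted p = 5.98e-05), where Junb was lower too (−0.19, SE 0.0486, adjusted p = 0.00204).

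Atf3, a stress-induced bZIP factor that can repress its targets as a homodimer, was lower in 3KR MEFs under both treatments. It stood at 218.7, 216.1 and 230.8 normalized counts in untreated and 269.6, 301.5 and 231.9 in NCS-treated wild-type MEFs. The values of 3KR were 184.4, 166.4 and 160.9 without and 158, 144.7 and 166.5 with NCS. All samples of 3KR were below all samples of wild-type. Lack of overlap between the genotypes was common, at 53.5% of all tested genes without treatment and 54.3% after NCS. The log2 difference between genotypes was −0.39 (SE 0.11, adjusted p = 0.00613) without and −0.77 (SE 0.111, adjusted p = 3.70e-06) with NCS. The response to NCS was 0.27 (SE 0.104, adjusted p = 0.0598) in wild-type and −0.12 (SE 0.117, adjusted p = 0.484) in 3KR MEFs, and the difference between them, −0.39, did not pass the test (adjusted p = 0.204). With replicate 3 of wild-type left out the rise was 0.39 (adjusted p = 0.00977) and the difference between the responses −0.51 (adjusted p = 0.0344), both past the threshold.

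Ier2, a small nuclear protein induced with the AP-1 genes, was called lower with NCS in wild-type MEFs and was not called in 3KR MEFs. It went from 2069, 1889 and 2317 to 1793, 1838 and 1666 normalized counts there, and from 1993, 2045 and 1989 to 2050, 2077 and 2102 in 3KR MEFs. The treated wild-type samples lay below all 9 others. The log2 fold change was −0.25 (SE 0.0552, adjusted p = 0.00156) in wild-type and 0.050 (SE 0.0552, adjusted p = 0.544) in 3KR MEFs. The responses differed by 0.30 (SE 0.0781, adjusted p = 0.0319), but not past the threshold without NCS replicate 1 of wild-type or without any 1 of the 6 samples of 3KR (adjusted p = 0.0555 to 0.0892). Without treatment the genotypes differed by −0.064 (adjusted p = 0.368), which was called lower, at −0.13, without replicate 2 of untreated wild-type (adjusted p = 0.0465).

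**Figure D3:**
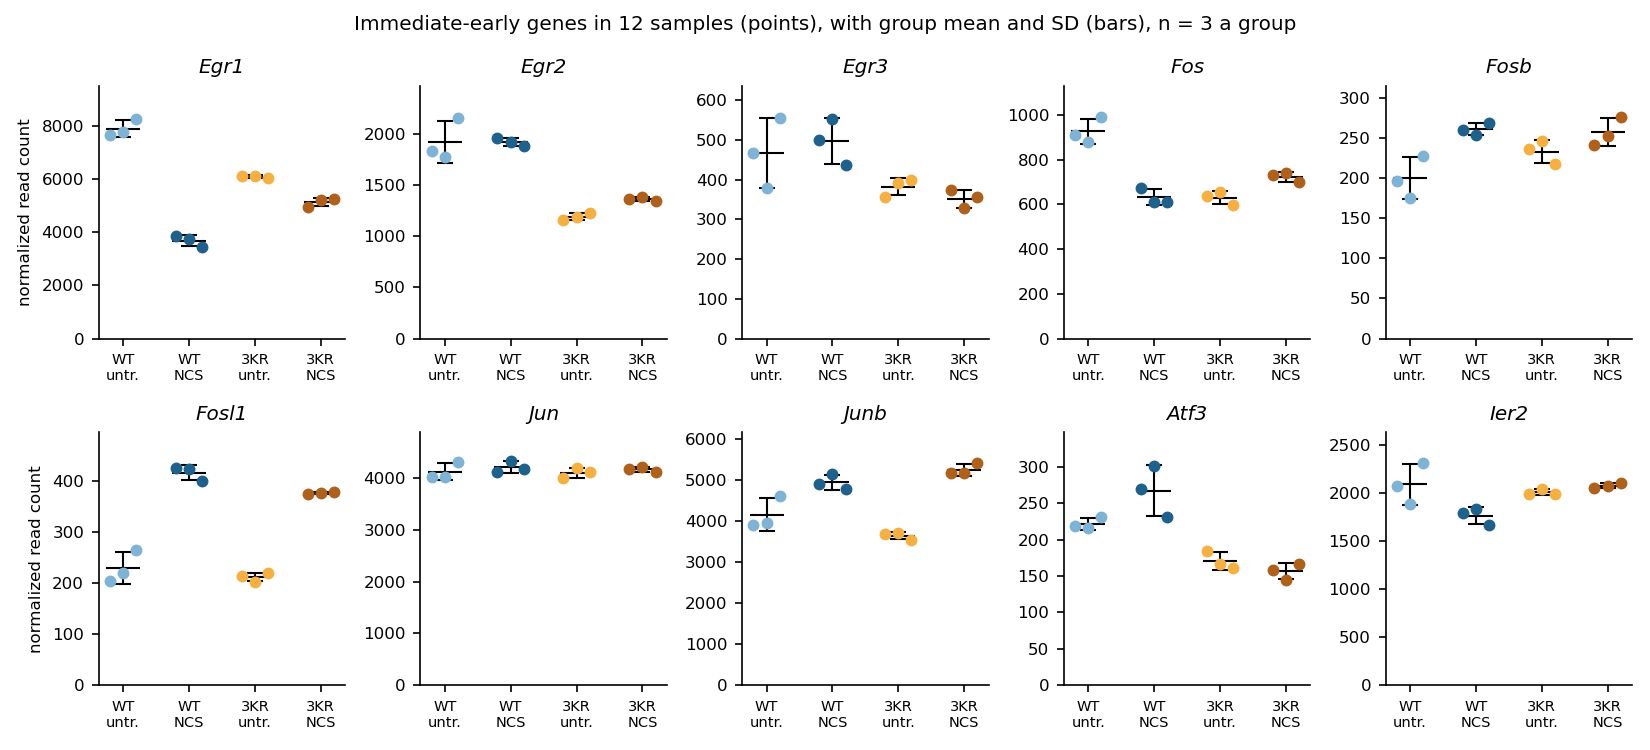
Normalized read counts of the 10 genes in each of the 12 samples (points; y axis from 0), with the group mean and SD (n = 3) as bars, in untreated and NCS-treated wild-type (WT) and 3KR MEFs. The NCS-treated wild-type samples of Egr1 lie at 3448 to 3860, below all others, and the 12 samples of Jun lie between 4009 and 4342.

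The response to NCS was also compared between the genotypes. Their samples differ in sex as well, so the part of the 3KR substitutions cannot be told apart from that of sex. The 4 calls for the difference between the responses, Egr1, Fos, Junb and Ier2, were all toward a more positive response in 3KR MEFs. Of all tested genes, 1.86% were called higher in this comparison and 1.87% lower. None of the 10 was called lower in edgeR or in DESeq2, and at an unadjusted p under 0.05 in edgeR only Atf3 was. For Egr1 and Fos, whose p-values ranked 1 and 23 of the 15327, the call held in each of the 20 alternative settings tried. The 10 genes split evenly in sign (5 positive), with a median of 0.099 beside 0.0039 over all genes. Without replicate 3 of the wild-type MEFs, 6 of the 10 were called, the same 4 higher and Egr3 and Atf3 lower.

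The genotypes were also compared without treatment. Sex differs with genotype in these samples and cannot be told apart from it, and the part of other cell types was not tested. Of the 10 genes, 6 were lower in 3KR MEFs (Egr2, Fos, Atf3, Egr1, Egr3 and Junb) and 0 higher in edgeR, where 23.6% of all tested genes were called lower and 22.1% higher. In this fit Fosb had an unadjusted p of 0.0484 for a higher level, and DESeq2 also called 0 higher. Egr1 was at 0.772, Egr2 at 0.62, Fos at 0.68 and Atf3 at 0.769 times the wild-type mean. The median log2 difference of the 10 was −0.24, beside −0.00036 over all genes. Leaving out replicate 3 of wild-type removed Egr3 from the lower genes and made Fosb the only one called higher.

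After NCS the order was changed for part of the genes. Egr1, Fos and Ier2 were higher in 3KR than in wild-type MEFs, at 1.4, 1.14 and 1.18 times the wild-type mean, and Egr2, Egr3 and Atf3 were lower, at 0.711, 0.709 and 0.584 times. That is 3 of 10 higher, against 22.9% of all genes, and 3 of 10 lower, against 23.6%. Egr1 (0.48, SE 0.0407, adjusted p = 8.18e-10) and Fos (0.19, SE 0.064, adjusted p = 0.0164) had been lower in 3KR before treatment, by 0.38 (adjusted p = 2.55e-08) and 0.56 (adjusted p = 6.39e-08) on the log2 scale. The higher level of Fos was no longer called without NCS replicate 2 of wild-type or NCS replicate 1 or 2 of 3KR (adjusted p = 0.0537 to 0.0676). Ier2 was higher by 0.23 (SE 0.0557, adjusted p = 0.00138). Egr2, Egr3 and Atf3 kept the direction they had without treatment. Junb, at 0.085 (adjusted p = 0.151), was called higher as well without replicate 3 of wild-type (0.065, adjusted p = 0.0471) or in a fit of the 6 treated samples alone (0.091, adjusted p = 0.043).

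**Figure D4:**
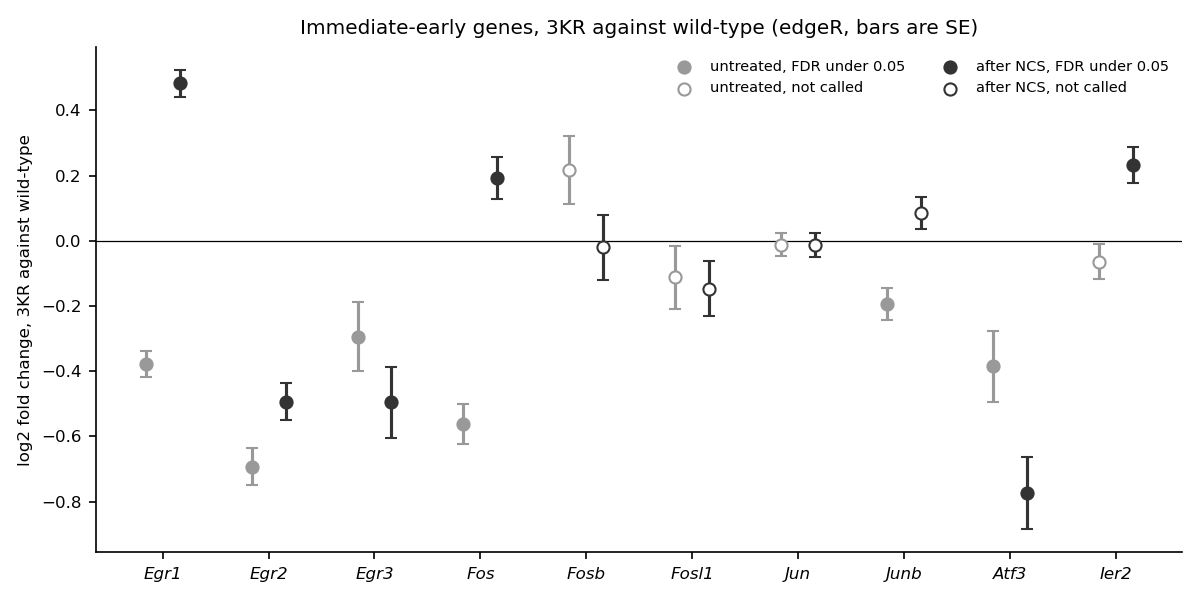
Log2 fold change of each gene in 3KR against wild-type MEFs from edgeR, with SE bars, without treatment and after NCS (filled points, adjusted p under 0.05). The points of Egr1 and Fos lie below 0 without treatment (−0.38 and −0.56) and above it after NCS (0.48 and 0.19), those of Egr2, Egr3 and Atf3 stay below 0, and those of Jun lie on it.

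Within the groups of wild-type MEFs, the members often deviated from their group means in the same direction. In replicate 3 of untreated wild-type MEFs all 10 genes were above their group mean, by a median of 0.154 on the log2 scale, while the median over all genes in that sample was 0.0115. In replicate 2 of the same group 0 of the 10 were above, and in replicate 3 of NCS-treated wild-type MEFs 1 of 10. In the samples of 3KR between 4 and 7 of the 10 were above. Egr3 covered the widest span, from −0.282 to 0.268 in untreated wild-type MEFs. The within-group SD ranged from 0.0397 for Jun to 0.175 for Egr3, beside a median of 0.0865 over all tested genes. After removing the group means, all 45 pairs of members correlated positively over the 12 samples, with r from 0.167 to 0.905, a description over samples that share a wild-type replicate standing apart.

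**Figure D5:**
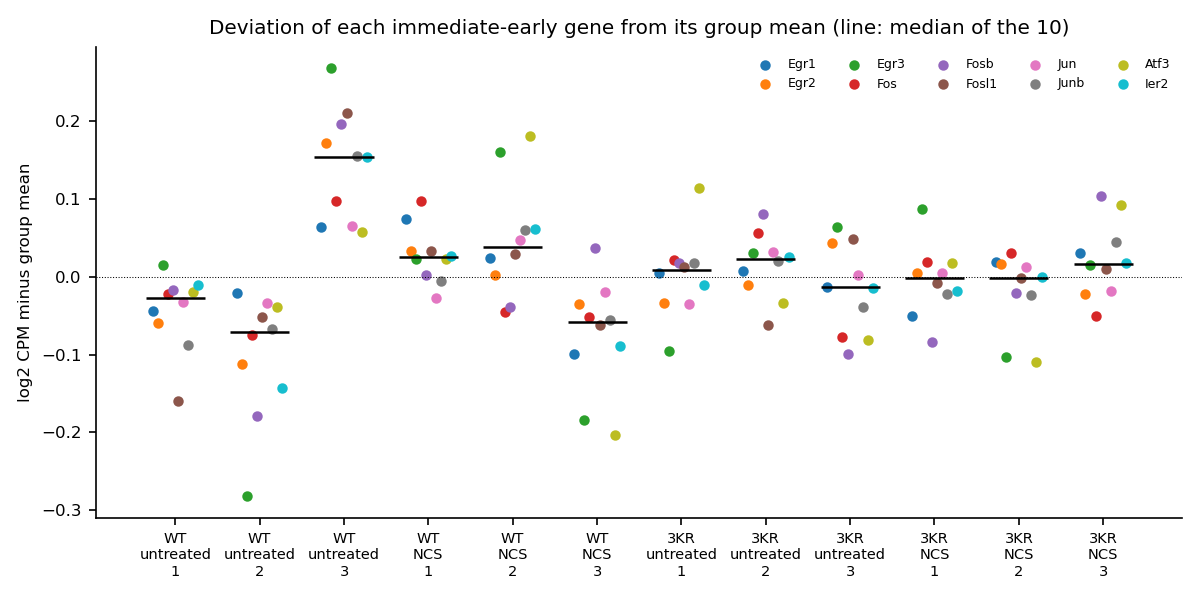
Deviation of the log2 CPM of each gene from its group mean in each sample (points, coloured by gene), with the median of the 10 genes as a line. All 10 points of untreated wild-type replicate 3 lie above 0 and all 10 of replicate 2 except that of Egr3 lie between 0 and −0.2, with Egr3 at −0.282.

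The pathway around these genes was read from lists of named genes, whose calls are given beside the shares over all genes above. Of 23 genes of the MAP kinase cascade, from RAS to the kinases below it, 6 were higher and 1 lower with NCS in wild-type MEFs and 12 and 2 in 3KR MEFs, with medians of 0.048 and 0.096. Map2k4, an activator of JNK, rose by 0.41 (adjusted p = 1.36e-09) and 0.48 (adjusted p = 9.13e-11). Without treatment 2 were higher and 11 lower in 3KR MEFs, among them Nras and Map2k1 (−0.24 and −0.23). Of the 8 genes for SRF, its cofactors and the EGR corepressors, 5 rose and 0 fell in either genotype in edgeR, as in DESeq2, with 0 lower at an unadjusted p under 0.05. Mkl1, an actin-regulated SRF cofactor, rose by 0.26 and 0.35. Nab1 and Nab2, which bind EGR proteins and repress them, were higher in untreated 3KR MEFs by 0.18 (adjusted p = 0.000228) and 0.23 (adjusted p = 9.46e-05), while the ternary complex factors Elk1 and Elk3 were lower (−0.32 and −0.35). None of the genes of these lists was called for a difference between the responses in edgeR or DESeq2, and at an unadjusted p under 0.05 in edgeR there were 3 higher and 1 lower genes of the cascade and 0 of the SRF list. After NCS 6 genes of the cascade were lower and 1, Map2k6, higher in 3KR MEFs, beside 23.6% and 22.9% of all tested genes. Without replicate 3 of wild-type 10 of the cascade were lower.

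Of 18 feedback inhibitors of the MAP kinases, 8 rose and 1 fell with NCS in wild-type MEFs and 12 rose and 1 fell in 3KR MEFs, and 12 were lower and 1 higher in 3KR MEFs before treatment (median −0.41). Dusp6, the ERK phosphatase, had a mean of 4824 normalized counts in untreated wild-type and 2435 in untreated 3KR MEFs (−0.99, adjusted p = 2.36e-14), and Spred2 had 3281 and 1671 (−0.98, adjusted p = 1.26e-14). Both were lower after NCS as well (−0.68 and −0.96). Dusp1, Dusp6 and Spred3, named here after their values were seen, had a more positive response in 3KR MEFs (0.34, 0.31 and 0.36), the same direction as Egr1 and Fos, and 0 of the 18 had a more negative one in edgeR or DESeq2 (0 at an unadjusted p under 0.05 in edgeR, and 1 called without replicate 3 of wild-type).

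Of 15 other immediate-early transcription factors, 8 rose and 3 fell with NCS in wild-type MEFs and 10 rose and 1 fell in 3KR MEFs, with medians of 0.33 and 0.45. Klf10 rose by 0.66 and 0.68 and Klf4 by 0.47 and 0.57. Egr4, the remaining EGR gene, fell in wild-type MEFs (−1.55, SE 0.498, adjusted p = 0.023) at means of only 19.28 and 6.552 normalized counts. Myc fell by 0.18 and 0.17. In untreated 3KR MEFs 5 were higher, Nr4a1 among them (0.55, adjusted p = 1.02e-06), and 6 lower, with Maff at −0.74 (adjusted p = 8.78e-12). The response was more positive in 3KR MEFs for 2 of the 15, Nr4a2 (0.46, adjusted p = 0.0249) and Hes1 (0.24, adjusted p = 0.0152), and more negative for 0 in edgeR or DESeq2 (0 at an unadjusted p under 0.05). Without replicate 3 of wild-type 4 of the 15 were called, all more positive. Of the 20 other bZIP genes listed as partners of FOS, JUN or ATF3, 17 were tested. NCS raised 4 and lowered 3 of them in wild-type MEFs and raised 5 and lowered 5 in 3KR MEFs, with Nfe2l2 up by 0.30 and 0.34 and Atf4 down (−0.19 and −0.22). Without treatment 9 were higher in 3KR MEFs, Jdp2 among them (0.48), and 3 lower. Cebpd, named after its values were seen, was the 1 gene of the 17 that edgeR called for a difference between the responses (0.29, adjusted p = 0.0219), with 1 more negative at an unadjusted p under 0.05, while DESeq2 called 1 more positive and 1 more negative.

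Of 34 immediate-early and AP-1 or EGR target genes that are not transcription factors, 21 rose and 1 fell with NCS in wild-type MEFs, and 26 rose and 2 fell in 3KR MEFs, at medians of 0.23 and 0.28. Ereg, an EGFR ligand, rose by 0.72 and Lif, a cytokine, by 0.83 in wild-type MEFs. Btg2 rose by 0.93 and Ptgs2, the inducible cyclooxygenase, by 1.02 in 3KR MEFs. Without treatment 20 were lower and 9 higher in 3KR MEFs (median −0.28). Ctgf had a mean of 67640 in wild-type and 33910 in 3KR MEFs (−1.002, adjusted p = 8.43e-19) and Plaur 7146 and 3690 (−0.96, adjusted p = 2.99e-16), whereas Mmp3 was higher (0.97, adjusted p = 3.52e-10). The response to NCS was more positive in 3KR MEFs for 8 of the 34 and more negative for 0 in edgeR, with 2 more negative at an unadjusted p under 0.05 and 0 in DESeq2, and 2 called without replicate 3 of wild-type. Among the 8, Ptgs2 (0.51), Btg2 (0.42) and Plaur (0.38), named after their values were seen, had the differences given in brackets. These 3 were at a lower mean in untreated 3KR than in untreated wild-type MEFs, as were Egr1, Fos and Junb. Ier2 was not called there (−0.064, adjusted p = 0.368). The untreated levels enter the difference between the responses, so the 2 comparisons are not independent.

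The pattern most like the mean of the 10 standardized genes over the 12 samples was that of Wdr18 (Pearson r = 0.921), followed by Jpt1 (0.903), Chsy3 (0.898), Vasp (0.881) and Masp1 (0.859). Taken singly, Egr1 was most like Nxpe3 (0.944), Egr2 like Dusp6 (0.99), Egr3 like Rab33b (0.936), Fos like Nus1 (0.866) and Fosb like Zfp777 (0.913). Fosl1 was most like Gtf3c1 (0.989), Jun like A430110L20Rik (0.837), Junb like Atxn1 (0.961), Atf3 like Tcn2 (0.978) and Ier2 like Bub3 (0.875). By rank (Spearman), the correlation was only 0.524 for Fos with Nus1 and 0.636 for Fosb with Zfp777. The other members and their nearest genes were at 0.783 to 0.979. No member had another member as its nearest gene. Among the members the strongest positive correlations were those of Fosl1 with Junb (0.925) and Egr3 with Atf3 (0.858), and the strongest negative was that of Egr1 with Fosl1 (−0.816). These values rest on 12 samples in 4 groups and describe them only.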

How the data were processed

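The RNA-seq libraries were made with a stranded mRNA kit. The authors deposited raw counts of reads per Ensembl gene for each sample. The submitters' processing notes name TopHat, HTSeq and the build mm9, while versions and the strand setting are not given in the sources used here. Positions, symbols and exon lengths were read from GENCODE M21 (GRCm38), which holds 32919 of the 37991 identifiers.

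edgeR 4.0.16 (R 4.3.3) was run on the counts of all 12 samples with filterByExpr, TMM and its quasi-likelihood test, and 1 coefficient per group. P-values were two-sided and adjusted by the Benjamini-Hochberg method over 15327 genes, and a gene was called at 0.05. Size factors of DESeq2 1.42.0 gave the normalized counts, the floor was 3 counts and log2 CPM had a prior count of 2. The 95% intervals are for single genes and not adjusted. They use a t distribution with the residual degrees of freedom, fewer than the quasi-likelihood test uses. They are therefore wider than its p-values imply. Depth was 33203757 to 45279321 counts. The edgeR steps were tested on simulated data.

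The 10 genes and the lists of other genes were chosen with earlier results of these data known. From each list the text names up to 2 genes per direction with the lowest p-values in each comparison of 2 groups, beside the 10 genes and Cdkn1a, Xist and Ddx3y, and the genes with the highest Pearson correlation. Results for some genes that this rule names are not reported here. Alternatives were DESeq2 size factors, library totals, the Wald test of DESeq2, limma-voom (limma 3.58.1, only for the difference in response), no filter, a minimum of 10 counts in all samples, fits of the compared groups only, a replicate block, and samples left out.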

Additional observations from a re-analysis of the deposited data

Results flagged for a closer look

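For 4 of the 10 genes the change with NCS differed between wild-type and 3KR MEFs by a test of the difference itself (edgeR, adjusted over all tested genes). Egr1 differed by 0.86 on the log2 scale (adjusted p = 4.38e-09), Fos by 0.76 (adjusted p = 1.29e-05), Junb by 0.28 (adjusted p = 0.0198) and Ier2 by 0.30 (adjusted p = 0.0319). In all 4 the 3KR MEFs had the more positive change, and for Fos the change with NCS was called in opposite directions, down in wild-type and up in 3KR MEFs. The rise of Fos in 3KR MEFs lost its call in 4 of 14 alternatives. The difference between the responses lost its call in 3 of 20 for Junb and 7 of 20 for Ier2. The genes were chosen with these results known, and the part of sex, which differs between the genotypes' samples, was not tested and cannot be told apart from that of the genotype.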

How the results depend on the processing

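The count of genes called for a difference in response to NCS, 572 of 15327, moved to 1379 with the genotype and replicate number as a replicate block, to 1842 without wild-type replicate 3 of both treatments and to 345 to 1159 on leaving out 1 sample. The 4 of the 10 genes called became 6 without wild-type replicate 3 and 2 to 4 on leaving out 1 sample. Same-numbered samples were not pairs by the rule set (correlation over 0.1 in every pair), with 0.143 to 0.351 in wild-type and −0.12 to −0.000143 in 3KR MEFs, and no sample of 3KR correlated best with its own number. The block changed no call of the 10 genes. It moved the genes called for NCS from 4090 to 5239 in wild-type and from 4721 to 5799 in 3KR MEFs, while the replicate number as a block gave 7173 and 7292 between genotypes. With library totals as the only scaling the genes called for NCS were 1464 higher and 2885 lower in wild-type (2189 and 1901 with TMM) and 1718 and 3275 in 3KR MEFs (2417 and 2304).

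Of 760 log2 fold changes of the 10 genes under an alternative, 696 kept direction and side of the threshold, 24 lost the call, 10 gained it and 30 changed sign. The changes of sign were in values that had not been called. Egr2 with NCS in wild-type MEFs became 0.00084 with DESeq2 size factors, 0.00050 in the Wald test, 0.00026 with the replicate block and 0.099 without wild-type replicate 3 (−0.057 to 0.086 on leaving out 1 sample). Jun became −0.021 with library totals for NCS in both genotypes, 0.0062 and 0.0065 between genotypes and 0.00032 for the difference in response, which was 0.017 with at least 10 counts in every sample. Without wild-type replicate 3, untreated 3KR against wild-type gave 0.0053 for Fosl1, 0.028 for Jun and 0.019 for Ier2, and after NCS 0.0057 for Fosb. On leaving out 1 sample, Egr3 with NCS in wild-type MEFs ran from −0.041 to 0.22. Between untreated genotypes Jun ran from −0.028 to 0.022 and Ier2 from −0.13 to 0.014, and after NCS Fosb from −0.076 to 0.023 and Jun from −0.026 to 0.011. The difference in response ran from −0.15 to 0.048 for Fosl1 and −0.035 to 0.023 for Jun.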

Other observations

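In the genomic order of GRCm38, Junb (84974484 to 84978718, minus strand) and Ier2 (84661331 to 84662852, minus strand) both lie on chromosome 8, and both had a more positive response to NCS in 3KR MEFs. That call was lost in 3 of 20 alternatives for Junb and in 7 of 20 for Ier2. A link between position and response was not tested. Of the 10 fibroblast markers, 5 (Lum, Dcn, Col3a1, Pdgfra and Fn1) had a more negative response in 3KR MEFs, by 0.14 to 0.37 on the log2 scale, where 1.87% of all tested genes were called lower. These 5 went in the opposite direction to Egr1, Fos, Junb and Ier2. A more positive response was called for 0 of the 10, and Vim had one at an unadjusted p under 0.05 in edgeR. Of 10 p53 target genes, 9 rose with NCS in each genotype, with medians of 0.82 in wild-type and 0.93 in 3KR MEFs, beside 14.3% and 15.8% of all tested genes called higher. The response was more positive in 3KR MEFs for 3 (Ccng1, Cdkn1a and Trp53inp1), beside 1.86% of all genes. In 3KR against wild-type MEFs 8 were lower without treatment and 7 lower and 1 higher after NCS, beside 23.6% of all genes called lower in each.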
